A study of Mus musculus with 4 samples.

Results

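C/D box small nucleolar RNAs (snoRNAs) were measured in the whole brain of Adar2 knockout and wild-type mice. The set held the transcript clusters whose gene symbol starts with Snord, other than those in windows around the imprinted Snrpn to Ube3a region of chromosome 7 and Dlk1 to Dio3 region of chromosome 12. Each transcript cluster is a set of probes for 1 locus, summarised to 1 value. The rule gave 64 of the 33793 clusters in the deposited table, no pair of them with the same values on all arrays. They lay on 16 chromosomes and were measured by 8 to 36 probes each. The 31 Snord rows inside the windows were left out.

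The samples were total RNA of dissected brains of adult female 129SV mice, 2 wild-type and 2 Adar2-/-, on 1 gene array each. A pre-edited Gria2 allele, which keeps mice without ADAR2 alive, was present in the knockouts and in their wild-type siblings alike. ADAR2, encoded by Adarb1, deaminates adenosines in double-stranded RNA, which leaves inosines. The question addressed by the arrays was whether transcript levels change in the absence of ADAR2. The samples were different animals, so p-values describe the spread between these few animals. The smallest two-sided p of an exact permutation test of 2 arrays against 2 is 0.333.

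C/D box snoRNAs are short nuclear RNAs named after a pair of conserved sequence elements. With the methyltransferase fibrillarin and the proteins Nop56, Nop58 and Snu13 they form particles that guide 2′-O-methylation of ribosomal RNA and of some spliceosomal RNAs, and a few act in the cleavage of ribosomal RNA precursors instead. Most mammalian C/D box snoRNAs are cut out of introns of host genes, often genes of ribosomal proteins, translation factors or noncoding host genes of the Snhg kind, while a minority has its own promoter.

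The symbols were checked against RefSeq. Of the 64 clusters, 63 overlapped the RefSeq gene of the same symbol (GRCm38.p6) and 14 had the identical span. The exception was a second copy of Snord1c (chr11:56263165-56263240). 62 clusters were 48 to 238 bases long, with a median of 81, as fits single snoRNAs. The cluster named Snord33 (chr7:45125558-45128748) was 3191 bases long and covered the whole Rpl13a gene. That named Snord7 (chr11:83291699-83294929) was 3231 bases long and covered a pair of noncoding genes, AA465934 and AI450353. These 2 values therefore belong to their loci and not to a snoRNA alone. The file marked 24 of the 64 clusters as having probes that can cross-hybridize.

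Adarb1 itself had log2 signals of 10.50 and 10.45 in wild type and of 9.16 and 8.96 in knockout, as the labels require. Median log2 signals of the arrays were 6.03, 6.06, 6.09 and 6.08 in wild type 1, wild type 2, knockout 1 and knockout 2. The neuronal marker Snap25 was bright on every array (12.97 to 13.16). Of 20 marker clusters of brain cells, blood, pituitary and choroid plexus, 3 had an unadjusted limma p below 0.05, against 5.95% of all clusters. Alas2, the heme enzyme of red blood cells and the only blood marker found, read 8.71 and 7.90 in wild type and 7.34 and 7.80 in knockout, highest in wild type 1. The pituitary hormone gene Pomc read 5.36 and 5.09 against 5.97 and 5.50, highest in knockout 1, as was the brighter cluster of Cga, while Tshb was lowest there, with 4.69, and differed by 0.01. The choroid plexus genes Ttr (12.76 and 13.12 against 12.94 and 13.07) and Folr1 (6.65 and 7.25 against 7.05 and 6.86) were lowest in wild type 1, and Kl (8.80 and 9.22 against 8.76 and 9.02) in knockout 1. The myelin gene Mog read 10.11 and 10.21 against 9.90 and 9.72. Knockout 1 stood apart in Bpifa2, a salivary gland gene, with 12.61 against 5.09 to 5.28 elsewhere, and both knockouts in prolactin, with 9.66 and 10.11 against 4.99 and 6.55. The part of these in the snoRNA values was not tested. The table gives no detection calls. Clusters of 4 Y-linked genes, absent from female mice, read 3.49 to 4.40 and show the signal of probes without a target. 7 of the 64 C/D box snoRNA clusters had a mean at or under 4.40, and 5 of these stayed there on all 4 arrays.

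No C/D box snoRNA passed the test between genotypes. Adjusted limma p-values (lmFit and eBayes, Benjamini-Hochberg over all 33793 clusters) ran from 0.834 to 0.997 over the 64 clusters, and 0% of the clusters of the whole table had an adjusted p below 0.05. On an unadjusted limma p below 0.05, 7 of the 64 were called, 6 higher and 1 lower in knockout, against 5.95% of all clusters (3.64% higher, 2.31% lower). The median difference, knockout minus wild type, was 0.15 on the log2 scale, with 45 of 64 clusters higher and 19 lower. Over all clusters the median was 0.005. The smallest and largest differences were -0.50 and 1.105, 3 clusters differed at least 1.5-fold and 1 at least 2-fold. Standard errors of single clusters ran from 0.10 to 0.62. In whole-brain RNA, fewer cells of a type and less RNA per cell cannot be told apart.

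The tilt towards higher values in knockout depended on 1 array of each genotype, wild type 1 and knockout 1. Set against its own mean over the 4 arrays, the median C/D box snoRNA cluster was at -0.25 in wild type 1, 0.10 in wild type 2, 0.19 in knockout 1 and -0.06 in knockout 2. Wild type 1 was the lowest array in 40 of 64 clusters (62.5%, against 26.4% of all clusters), and knockout 1 the highest in 33 (51.6%, against 24.9%). The order of the arrays thus did not follow genotype, since wild type 2 lay above knockout 2.

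**Figure D1:**
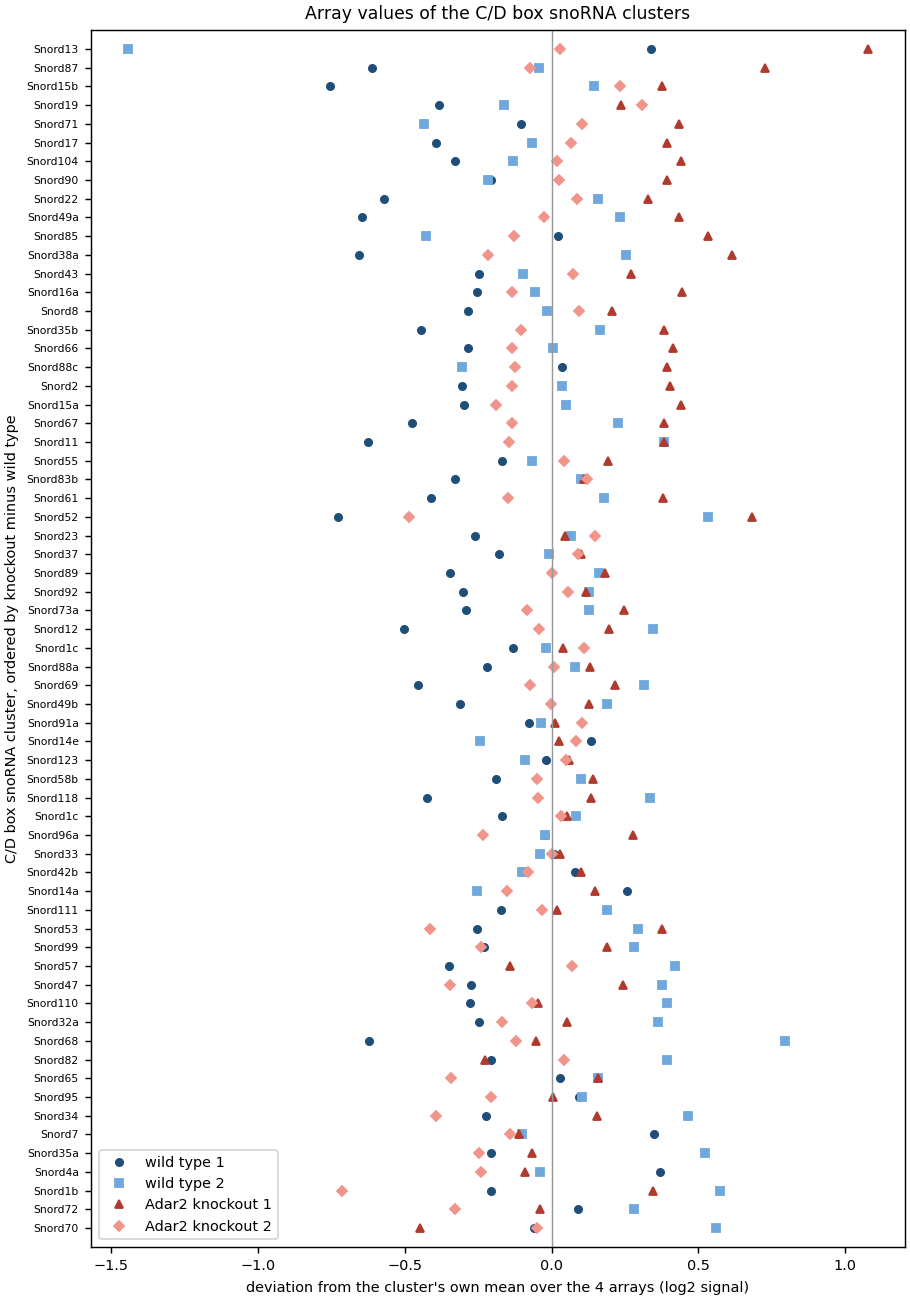
Each row is 1 of the 64 C/D box snoRNA clusters, ordered by the difference between genotypes with the most positive at the top, and each point is 1 array (x axis: deviation of its log2 signal from the cluster's own mean over 4 arrays). Wild type 1 (dark blue circles) is the leftmost point in 40 rows and knockout 1 (dark red triangles) the rightmost in 33.

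The animals of 1 genotype differed from each other by more than the genotypes did in many clusters. Wild type 2 exceeded wild type 1 by a median of 0.345, upwards in 51 clusters and downwards in 12. Knockout 2 was below knockout 1 by a median difference of -0.23, upwards in 9 and downwards in 55. The wild-type pair was further apart than the genotype means in 46 of 64 clusters. The median SD of the pair was 0.304 in wild type and 0.180 in knockout.

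Pairs of arrays across genotypes gave different answers. Against wild type 1, knockout 1 was higher by a median of 0.465, in 56 of 64 clusters. Knockout 2 was higher than the same array by 0.21, in 45 clusters. Against wild type 2 the medians were 0.075 for knockout 1, higher in 39, and -0.165 for knockout 2, higher in 22.

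Leaving out single arrays moved the median accordingly. Without wild type 1 it was -0.03, with 29 of 64 clusters higher, and without knockout 1 it was 0.01, with 33 higher. Without wild type 2 it was 0.30, with 55 higher, and without knockout 2 it was 0.215, with 53 higher.

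Clusters whose genotypes did not overlap were also counted. Both knockout values lay above both wild-type values in 14 of 64 clusters, against 17.7% of all clusters. They lay below both in 4 of 64, against 16.5%.

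Wild type 1 was also the lowest and knockout 1 the highest array in H/ACA box snoRNAs, the class that guides pseudouridylation, but there knockout 2 lay above wild type 2. Over the 36 clusters with Snora symbols the median deviations were -0.39, 0.05, 0.25 and 0.08 in the array order given above, and the median difference between genotypes was 0.295, with 32 higher and 3 lower. Wild type 1 was the lowest array in 25 of these 36 clusters (69.4%) and knockout 1 the highest in 22 (61.1%). Other clusters of at most 300 bases described as snoRNAs, without a Snord or Snora symbol and with a mean above the Y-linked level, had a median difference of 0.15 (544 clusters, 401 higher and 139 lower), but the wild-type arrays did not part there, with a median difference of 0.00 between them. Clusters over 300 bases had a median difference of -0.005 between genotypes and 0.00 between the wild-type arrays. The imprinted Snord rows, 31 in number, held only 2 distinct sets of values, both of Snord116 on chromosome 7 with a difference of -0.18. The differences between these classes were not tested.

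**Figure D2:**
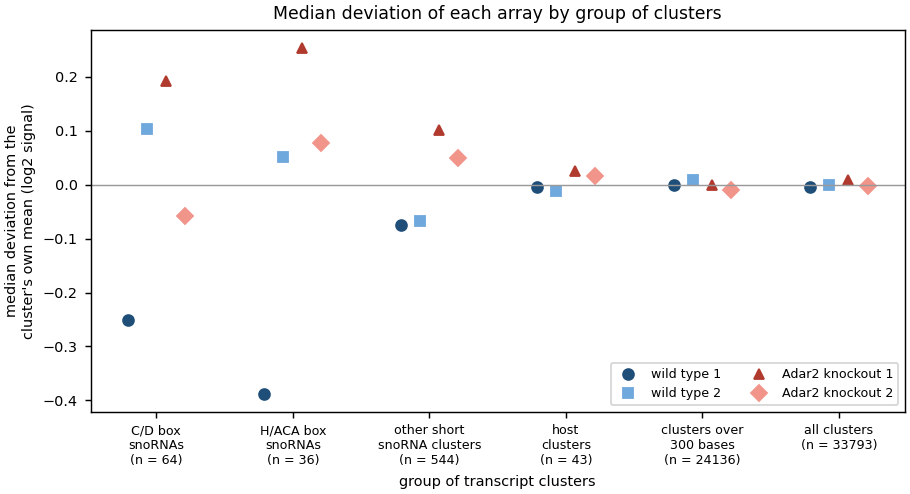
Median deviation of each array (y axis, log2 signal) from the clusters' own means, by group of transcript clusters (x axis, with the number of clusters; the other short snoRNA clusters and those over 300 bases have a mean above the Y-linked level). The arrays spread from -0.25 to 0.19 in C/D box and from -0.39 to 0.25 in H/ACA box snoRNAs, with wild type 1 lowest in both, and stay within 0.03 of 0 in the host clusters.

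The snoRNAs of ribosomal RNA precursor processing comprised 5 clusters, none of them called, against 5.95% of all clusters. Snord13 (U13; chr8:31149861-31149967, minus strand), which is transcribed from its own promoter and pairs with the precursor of the small-subunit RNA, had the largest difference of all 64. Its log2 signals were 11.52 and 9.74 in wild type and 12.26 and 11.21 in knockout. The wild-type animals were further apart than the genotypes, and wild type 1 lay between the knockouts. The difference was 1.105 (SE 0.62), or 2.15-fold, with an unadjusted limma p of 0.125 and an adjusted p of 0.848, and its probes can cross-hybridize. Without wild type 1 it was 1.995, with an unadjusted limma p of 0.0436, and without wild type 2 it was 0.215. In these fits the remaining wild type is assumed to vary like the knockout pair.

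Snord22 (U22; chr19:8725866-8725991), from an intron of Snhg1, read 6.89 and 7.62 in wild type and 7.79 and 7.55 in knockout. Only wild type 1 stood apart, and the difference of 0.415 (SE 0.25) had an unadjusted limma p of 0.146. It was 0.05 without wild type 1 and 0.78 without wild type 2. Snord118 (U8; chr11:69073426-69073562), an independently transcribed snoRNA required for maturation of large-subunit RNAs, read 6.06 and 6.82 against 6.62 and 6.44, so that the knockouts lay between the wild types. Its difference was 0.09 (SE 0.25).

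Both copies of Snord14 (U14), which acts in small-subunit processing, were near level. Snord14e, in an intron of the chaperone gene Hspa8 (chr9:40804748-40804838), read 9.71 and 9.33 in wild type and 9.60 and 9.66 in knockout, a difference of 0.11. Snord14a, in Rps13 (chr7:116333171-116333257), read 6.39 and 5.88 against 6.28 and 5.98, a difference of -0.005. In each copy the wild-type values enclosed both knockout values. Snord3, the U3 RNA, was not among the symbols.

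**Figure D3:**
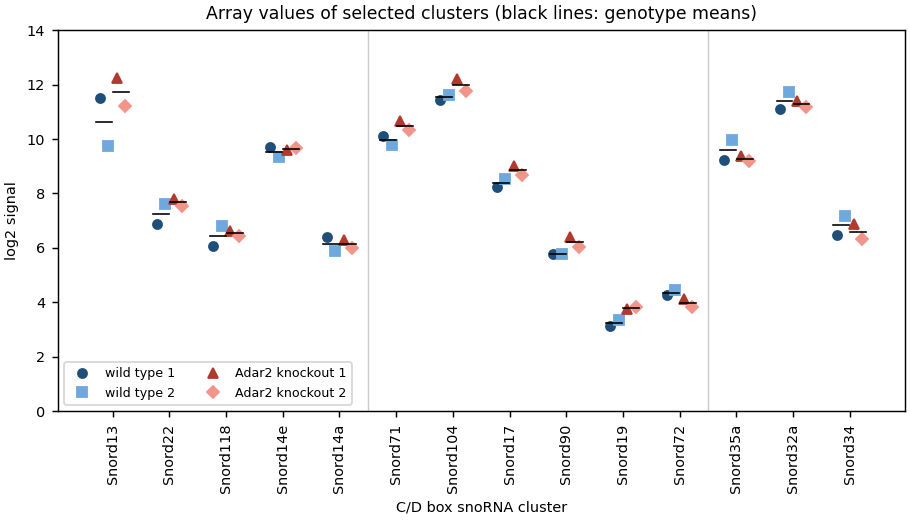
Log2 signal (y axis, from 0) of 14 C/D box snoRNA clusters (x axis) on each array, with black lines at the mean of each genotype (n = 2). From left to right the grey lines separate the snoRNAs of pre-rRNA processing, those named for an unadjusted p below 0.05, and those of the Rpl13a introns; Snord13 has the widest wild-type pair, 11.52 and 9.74, and in Snord71, Snord104, Snord17, Snord90, Snord19 and Snord72 the genotypes do not overlap.

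Of the 7 clusters with an unadjusted p below 0.05, 5 were named as the largest rises. Snord71 (chr8:109839295-109839379), from an intron of the adaptor protein gene Ap1g1, read 10.12 and 9.79 in wild type and 10.66 and 10.33 in knockout. All knockout values were above all wild-type values. The difference was 0.54 (SE 0.17), or 1.45-fold, with an unadjusted limma p of 0.0202.

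Snord104 (chr11:106500991-106501063), a guide for large-subunit RNA and among the brightest clusters, read 11.43 and 11.63 against 12.20 and 11.78. Knockout 2 lay closer to wild type 2 than to knockout 1. The difference was 0.46 (SE 0.17), with an unadjusted limma p of 0.0364. Snord17 (chr2:144265979-144266216), the longest of the snoRNA-sized clusters with 238 bases, lies in Snx5, a sorting nexin gene. It read 8.22 and 8.55 against 9.01 and 8.68, with the same difference of 0.46 (SE 0.17) and an unadjusted limma p of 0.0367.

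Snord90 (chr2:37400047-37400157), in Rc3h2, read 5.79 and 5.78 in wild type and 6.39 and 6.02 in knockout. The wild types agreed closely and both knockouts were above them, by a mean of 0.42 (SE 0.15, unadjusted limma p 0.031). Snord19 (chr14:31016206-31016281), in the nucleolar GTPase gene Gnl3, read 3.12 and 3.34 against 3.74 and 3.81, a difference of 0.545 with an unadjusted limma p of 0.00454. These 4 signals lie within or under the range of the Y-linked clusters, so whether the snoRNA was detected is not known. The sixth rise was Snord43 in Rpl3 (5.25 and 5.40 against 5.77 and 5.57), named here after its values were seen.

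The single fall was Snord72 (chr15:5118404-5118484), in Rpl37. It read 4.25 and 4.44 in wild type and 4.12 and 3.83 in knockout, a difference of -0.37 (SE 0.14) with an unadjusted limma p of 0.043. Its mean was also within the range of the Y-linked clusters.

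With 1 array left out, the lone array of its genotype is assumed to vary like the pair of the other. Of these 7 calls, 2 remained at an unadjusted p below 0.05 without wild type 1 (Snord19 and Snord71), 1 without wild type 2 (Snord19), 2 without knockout 1 (Snord19 and Snord72) and 5 without knockout 2. Snord19, at background level, was the only one called in each of the 4. The differences of Snord71, Snord104, Snord17, Snord90, Snord19 and Snord72 kept their sign in all 4 of these fits, with Snord71 at 0.375 to 0.705, Snord104 at 0.25 to 0.67, Snord17 at 0.295 to 0.625, Snord90 at 0.235 to 0.605, Snord19 at 0.435 to 0.655 and Snord72 at -0.515 to -0.225.

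Among the larger differences that did not pass, Snord87 and Snord15b were chosen after their values were seen. Snord87, in Snhg6, read 8.72 and 9.29 in wild type and 10.06 and 9.26 in knockout, so that only knockout 1 was raised. Snord15b, in Rps3, read 9.06 and 9.96 against 10.19 and 10.05, so that only wild type 1 was low. Snord70, in an intron of Nop58, had the most negative difference, with 4.60 and 5.22 against 4.21 and 4.61.

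**Figure D4:**
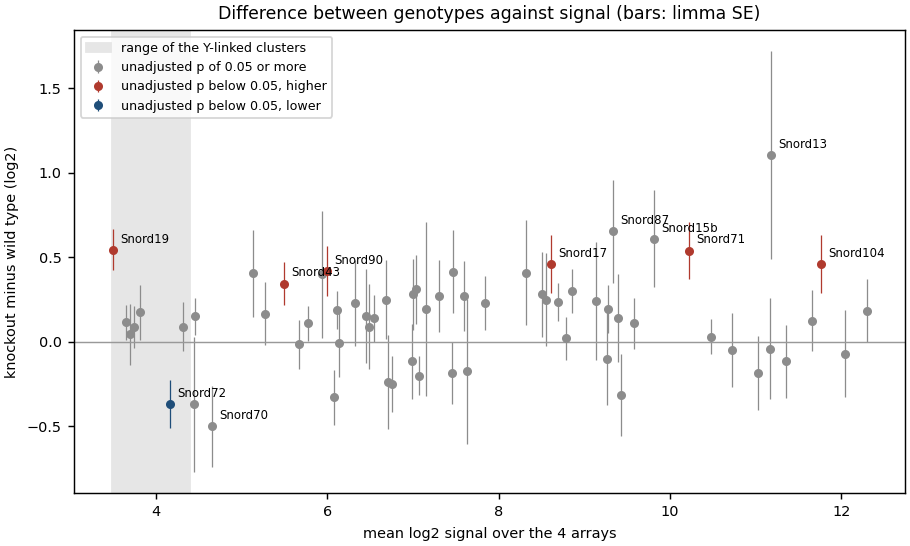
Difference between genotypes (y axis, knockout minus wild type, log2) against mean log2 signal over 4 arrays (x axis) for the 64 C/D box snoRNA clusters, with bars of 1 limma SE and the range of the Y-linked clusters (3.49 to 4.40) in grey. Red and blue points have an unadjusted p below 0.05, 6 higher and 1 lower, and Snord13 at 1.105 has the longest bar.

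The brightest clusters were Snord89, Snord57 and Snord104. Snord89 (chr1:39548745-39548854), in Rnf149, read 11.95 and 12.46 in wild type and 12.48 and 12.30 in knockout. Snord57 (chr2:130278016-130278088), which guides methylation of small-subunit RNA and lies in Nop56, read 11.69 and 12.46 against 11.90 and 12.11. In both, wild type 1 was the lowest array and the difference was under the wild-type spread (0.185 and -0.07). The dimmest were Snord19, Snord91a (3.58 and 3.62 against 3.67 and 3.76) and Snord96a (3.68 and 3.68 against 3.98 and 3.47), with means in the range of the Y-linked clusters and single values down to 3.12. Signals of different clusters come from different probes and do not rank the RNAs by abundance.

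Guides of U6 methylation were represented by Snord8 and Snord67, beside the long cluster named Snord7. Snord8, in an intron of the chromatin remodeller gene Chd8, read 8.57 and 8.84 in wild type and 9.06 and 8.95 in knockout, a difference of 0.30 with an unadjusted limma p of 0.0654. Snord67, in Ckap5, read 8.08 and 8.78 against 8.94 and 8.42, with overlapping genotypes. The Snord7 locus read 7.11 and 6.66 against 6.65 and 6.62, where wild type 1 alone was high.

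The snoRNAs of the Rpl13a introns, known from work on lipid-induced stress, went the other way from the median. Snord35a (chr7:45126346-45126435) read 9.22 and 9.95 in wild type and 9.36 and 9.18 in knockout, a difference of -0.315 (SE 0.24). Snord34 read 6.48 and 7.17 against 6.86 and 6.31, and Snord32a read 11.11 and 11.72 against 11.41 and 11.19. In all 3 wild type 2 was the highest array, and no difference passed the test (unadjusted limma p 0.244, 0.422 and 0.613). The cluster over the whole Rpl13a locus, named Snord33, read 10.49, 10.44, 10.51 and 10.48, so the spread of the intronic snoRNAs was not seen across the locus.

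Host transcripts showed neither the tilt nor the array order of their snoRNAs. A host cluster on the same strand was found for 58 of the 64, with 43 distinct hosts, and none for Snord13, Snord104, Snord118, the second Snord1c and the 2 long clusters. The median difference of the hosts was 0.02, with 24 higher and 19 lower, and their array medians were -0.005, -0.01, 0.025 and 0.015. The 18 snoRNAs in ribosomal protein genes had a median difference of 0.13 (11 higher, 7 lower) and the 40 in other hosts 0.165 (29 higher, 11 lower).

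3 of the 43 hosts had an unadjusted limma p below 0.05, all higher in knockout, and 2 of them are described. This share (6.98%) is near the 5.95% of all clusters. Rpl17, a large-subunit protein gene, read 5.09 and 5.02 in wild type and 6.26 and 5.80 in knockout, a difference of 0.975 (SE 0.17), while Snord58b from its intron differed by 0.09. Gas5, a noncoding host gene, read 4.05 and 4.30 against 4.67 and 4.76, a difference of 0.54, while Snord47 differed by -0.10 (8.99 and 9.64 against 9.51 and 8.92). Both wild-type values of Gas5 lay within the range of the Y-linked clusters.

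The opposite combination was seen in Snhg1. This noncoding host read 8.16 and 7.91 in wild type and 7.42 and 7.85 in knockout, a difference of -0.40 (unadjusted limma p 0.067), while its Snord22 differed by 0.415. Across the 58 snoRNAs set beside a host, the difference of the snoRNA and that of the host had a Pearson r of -0.0778 and a Spearman rho of -0.126, and 29 of 58 had the sign of their host. The points share hosts and the same 4 arrays, so these are descriptions across clusters.

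**Figure D5:**
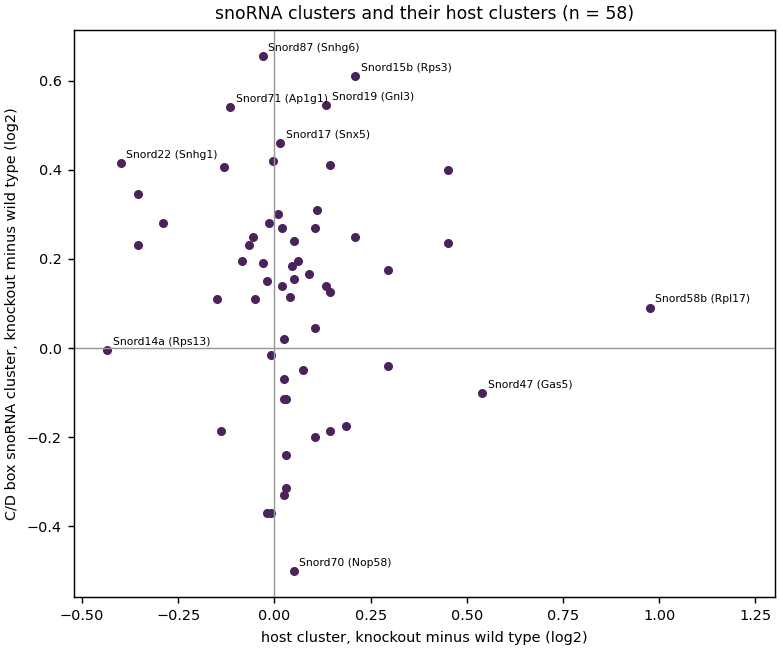
Difference between genotypes (knockout minus wild type, log2) of 58 C/D box snoRNA clusters (y axis) against that of their host clusters (x axis), with the host in brackets for some of the outer points. Hosts lie mostly near 0 while the snoRNAs range from -0.50 to 0.655, and the host with the largest difference, Rpl17 at 0.975, has a snoRNA at 0.09.

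SnoRNAs of the same host were set side by side, without a test of their gaps. 13 hosts held 2 or 3 of the clusters, 28 in all. In 7 hosts they had the same sign and in 6 they did not, with a gap between the highest and lowest difference of 0.045 to 0.74 (median 0.245). The narrowest gap was in Nop56, a gene for a core protein of the C/D particles, with Snord110 at -0.115 and Snord57 at -0.07. This gap leaves out 2 short clusters inside Nop56 that carry no Snord symbol, at -0.645 and 0.165. The widest was in Nop58, the gene of its partner, with Snord70 at -0.50 (SE 0.24) and Snord11 at 0.24 (SE 0.35). None of the snoRNAs in the 6 hosts of mixed sign was called, against 5.95% of all clusters, which says little for so few clusters. In the 7 other hosts Snord19 (Gnl3) and Snord43 (Rpl3) were called. No host held 4 or more of the clusters.

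Genes for box C/D proteins were measured by 15 clusters longer than 300 bases, covering 14 of 15 listed proteins. Their median difference was -0.09, with 5 higher and 10 lower. Fibrillarin (Fbl) read 7.70 and 7.79 in wild type and 7.78 and 7.48 in knockout, Nop56 read 8.94 and 8.93 against 8.95 and 8.97, and Nop58 read 7.25 and 7.11 against 7.12 and 7.34. None of these 3 had an unadjusted limma p below 0.05. The Nop56 values did not overlap, with a difference of only 0.025. Snu13, under the symbol Nhp2l1, had 2 clusters. That on chromosome 15 read 8.72 and 8.81 against 8.95 and 8.87, and that on chromosome 9 read 11.12 and 11.10 against 11.35 and 11.20. Both were higher in knockout without overlap (0.145 and 0.165), as were 17.7% of all clusters, and neither had an unadjusted limma p below 0.05. The exception in the list was Ruvbl1, an ATPase of the assembly machinery, with 8.47 and 8.23 against 8.04 and 8.02, a difference of -0.32 and an unadjusted limma p of 0.0421. With 1 of 15 called against 5.95% of all clusters, the list is near the background, and no cluster of it was called under quantile or loess normalization or without wild type 1, knockout 1 or knockout 2. Its partner Ruvbl2 differed by -0.195 without passing. The file also gave the symbol Nop56 to 2 short clusters inside the gene, of which 1 (chr2:130277697-130277766) read 4.64 and 4.58 against 4.14 and 3.79, a difference of -0.645 with an unadjusted limma p of 0.00473. These short windows were not counted among the Nop56 transcripts.

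The starts of the host genes were examined because transcripts of many snoRNA hosts begin with a run of pyrimidines, the 5′ terminal oligopyrimidine tract, which ties their translation to growth signals. RefSeq held a start window for 34 of the 43 hosts. An unbroken run of at least 8 letters C or T on the transcribed strand, within 15 bases either side of the first listed start, was found in 10 of the 34 (29.4%), against 11.9% of 27025 genes. A run anywhere in this window was counted, also one that ends before the start, as in Rpl4. A match is therefore not by itself a tract at the transcript start. Hosts without the run included the ribosomal protein genes Rps3, Rps13, Rps3a1 and Rpl37. The following stretches of 30 bases (GRCm38.p6, transcribed strand, longest run of C and T in capitals) show 4 hosts with a counted run and 4 without it. The latter 4 were picked because a snoRNA of theirs was called, so these are examples and not a comparison. Hosts without the run whose snoRNAs were not called are not shown.
Rpl13a (chr7:45128731-45128760, minus strand; Snord32a, Snord34, Snord35a): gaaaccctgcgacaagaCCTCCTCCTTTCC
Rack1 (chr11:48800345-48800374, plus strand; Snord95, Snord96a): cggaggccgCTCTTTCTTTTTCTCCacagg
Rpl4 (chr9:64173372-64173401, plus strand; Snord16a): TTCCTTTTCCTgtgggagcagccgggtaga
Snhg1 (chr19:8723472-8723501, plus strand; Snord22): gttgttcttgtcggcctcaTTTTTCCTTgt
Ap1g1 (chr8:109778568-109778597, plus strand; Snord71): gctcagaCTCCTCgcagcggtgactcggca
Snx5 (chr2:144270558-144270587, minus strand; Snord17): ctgctgggatggtggcggagTCCCgcggcc
Rc3h2 (chr2:37422889-37422918, minus strand; Snord90): aacggggctgTCCCTgtagctcccgatgga
Gnl3 (chr14:31019117-31019146, minus strand; Snord19): cgtaaaTCCaacctgtggccgccaggcgag

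The 16 snoRNAs of hosts with the run had a median difference of -0.03, with 7 higher and none called. The 30 of hosts without it had a median of 0.19, with 22 higher and 5 called, among them the dim Snord19 and Snord72, against 5.95% of all clusters. This split was made after the values were seen and was not tested. No match says only that these letters are not in the window of the first listed start, and the split does not separate hosts by the tract.

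The clusters were also split by the cross-hybridization mark. The 24 clusters with probes that can cross-hybridize had a median difference of 0.13 (17 higher, 7 lower) and the 40 others 0.17 (28 higher, 12 lower). Wild type 1 was the lowest array in 66.7% of the former and 60.0% of the latter, and knockout 1 the highest in 41.7% and 57.5%. Of the 24 marked clusters 1 was called and of the 40 others 6, against 5.95% of all clusters, and the difference was not tested. Among the 57 clusters with a mean above the Y-linked level the median was 0.165, with 39 higher and 18 lower.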

How the data were processed

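Total RNA was prepared with a whole-transcript labelling kit and hybridised to Affymetrix mouse gene arrays. The authors deposited normalized log2 signals per transcript cluster and array, to 2 decimals; Affymetrix Expression Console and RMA are named in the submitters' processing notes. The genome build is not given in the sources used here, and coordinates are those of the file, set against RefSeq genes of GRCm38.p6. The deposited averages, log ratios, fold changes and p-values were not used.

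All 33793 clusters were fitted with limma 3.58.1 in R 4.3.3 (lmFit, eBayes, genotype as only term, two-sided), without filter or further scaling. The shrinkage had a prior SD of 0.125 and 3.79 prior degrees of freedom. The number of arrays limits the precision. Python 3.11.15 with pandas 2.3.3 made the tables and matplotlib 3.10.9 drew the plots. The fit was tested on simulated data.

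The members and lists were chosen with earlier results of these data known. Named clusters were the 5 largest rises and falls with an unadjusted p below 0.05 and no overlap, all of pre-rRNA processing, and the 3 brightest and 3 dimmest; others are named as chosen later or as examples of their host or group. Hosts were the clusters that span a member on the same strand. The window and run length at host starts were chosen after the data were seen. Sequences of the snoRNAs were not used here. Some items are not reported here.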

Additional observations from a re-analysis of the deposited data

How the results depend on the processing

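The median difference of the 64 C/D box snoRNA clusters stayed between 0.11 and 0.185 under median centring, quantile and loess normalization, the filter on dim clusters, the other eBayes forms and without cross-hybridizing clusters, and between -0.03 and 0.30 with 1 array left out. The calls at an unadjusted p below 0.05, 7 of 64, ranged from 3 to 11 with 1 array left out (1 to 9 higher, 0 to 4 lower), where 3.61% to 5.33% of all clusters were called. They were 3 of 47, 3 higher and 0 lower, among clusters above the median signal (5.85% of all such clusters), and 1 without shrinkage of the variance (5.61% of all), 1 higher and 0 lower. With an intensity trend and, as an alternative chosen after seeing the data, above the Y-linked level, 0 were lower. No cluster of the table had an adjusted p below 0.05 except in the pooled-variance test without shrinkage, with 15 of 33793. With the replicate number as a replicate block, 6 of 64 were called, 3 of them shared with the 7 and 1 of them Snord13 (p 0.0145), against 5.01% of all clusters, and the median was 0.15; same-numbered arrays did not deviate together (r 0.0516 over all clusters), so the numbers were not treated as pairing the animals. Of the box C/D protein clusters, 1 was called, and 0 under quantile normalization, loess normalization and the replicate block, with a range of 0 to 1 with 1 array left out. Differences of named clusters that changed sign with 1 array left out had ranges of -0.08 to 0.30 for Snord14e, -0.29 to 0.47 for Snord118, -0.26 to 0.25 for Snord14a (0.145 without knockout 2), -0.455 to 0.315 for Snord57 (0.035 without knockout 1), -0.07 to 0.44 for Snord89, -0.21 to 0.30 for Snord96a and -0.68 to 0.05 for Snord35a. The cause of these shifts was not tested. Dim signals, which include the calls of Snord19 and Snord72, limit what can be read from 7 clusters.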
